A study of Mus musculus with 2 samples.

Results

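The expression of 34 genes of the cell division cycle was followed through the glia of the preoptic area, the part of the anterior hypothalamus that holds sleep-promoting neurons. The 34 genes were taken as a list of symbols, and all 34 were found among the 31054 genes of the count tables of both libraries. They comprise 10 genes of DNA replication (Pcna, Mcm2 to Mcm7, Tyms, Rrm1 and Rrm2) and 24 genes used mainly in mitosis. The mitotic genes were divided by role into 4 cyclin and cyclin kinase genes, 9 genes of mitotic kinases, the spindle checkpoint and its ubiquitin ligase, 9 genes of centromere and spindle, and the pair Mki67 and Top2a. The rule used symbols and no measured value, but the list was chosen with earlier results of these data known.

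A dividing cell makes these transcripts in order. Replication genes are transcribed as DNA synthesis begins, when E2F factors are released, and the genes of mitosis follow later under the DREAM and B-Myb-MuvB complexes, so that a cell in mitosis carries many transcripts that a resting cell lacks. In the adult brain most neurons and astrocytes have left the cycle for good. Oligodendrocyte precursors, the cells that carry Pdgfra and Cspg4 and supply new myelinating cells, are the main class that still divides outside the neurogenic niches, and microglia renew themselves by occasional division.

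The series compared 2 libraries of preoptic cells from C57BL/6J mice aged 9 to 10 weeks, males and females pooled. No allele or agent beyond the strain is named for either group. The group SD had 6 h of sleep deprivation, and the group SD+RS had the same 6 h followed by 2 h of recovery sleep. Cells were prepared with Act-seq, a dissociation that blocks transcription so that activity-related transcripts are kept as they were, and sequenced by droplet with unique molecular identifiers (UMIs), which count captured RNA molecules. Neither group was left to sleep undisturbed, so no baseline stands beside these values. How many mice were pooled is not stated in the labels.

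Each group was 1 library, so no test was possible, and every interval given below is a 95% exact interval that covers counting error only. The libraries held 10262 barcodes (SD) and 8106 barcodes (SD+RS), of which 9297 and 7415 were kept as single cells. Median depth was 7534.5 UMIs per barcode in SD and 14774 in SD+RS, and neurons, the deepest large class, made up 45.0% and 55.9% of the cells. The sexes were not balanced alike: cells with Xist UMIs and none of 4 Y-linked genes were 49.6% of the cells that could be called in SD and 78.9% in SD+RS. Of the barcodes, 23 occurred in both libraries, and none of them belonged to an SD precursor with at least 5 UMIs of the 34 genes.

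Summed over the 16712 cells, the 34 genes gave 22229 UMIs, and 61.3% of these lay in neurons. Replication genes supplied 74.1% of the total. With the threshold of at least 5 UMIs, 573 cells qualified, and 398 of them were neurons with a median depth of 30325 UMIs, against 20830.5 UMIs for all neurons. The threshold on the raw sum thus mainly picked deep neurons. Replication genes gave 76.2% of the UMIs of the 34 genes in neurons. No neuron had more than 27 UMIs of the genes, and among neurons at the threshold the genes made up at most 17.4 per 10000 UMIs. Oligodendrocyte precursors were 2.62% of all cells and held 6.58% of all UMIs of the 34 genes, and 17.7% of those of the 24 mitotic genes.

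In the precursor cluster all 8 of its markers were found, led by Pdgfra, C1ql1 and Matn4. At least 5 UMIs of the 34 genes were found in 16 of 263 precursors of SD, a share of 6.08% (Clopper-Pearson interval 3.52 to 9.69%). In SD+RS they were found in 4 of 175 precursors, a share of 2.29% (0.626 to 5.75%). The intervals overlapped. Median depth of the class was 4446 UMIs in SD and 4186 UMIs in SD+RS.

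Among other glia, 2 of 222 microglia passed in SD, a share of 0.901%, and 0 of 169 passed in SD+RS, which allows a share of up to 1.78% (3 counts over the 169 cells). Astrocytes, the reference class that should lack these genes, had 0 of 2095 cells past the threshold in SD and 1 of 1274 in SD+RS, at median depths of 3444 and 3140.5 UMIs. Mature oligodendrocytes had 30 of 1119 cells (2.68%) and 19 of 657 cells (2.89%), and those cells were deep, with medians of 22269.5 and 21730.0 UMIs against 6485.0 and 6504.0 in the class. The cluster led by Klk6, Enpp6 and Anln, genes of the oligodendrocyte lineage, had 14 of 249 cells (5.62%) and 9 of 173 cells (5.20%). Those cells were deep too, with medians of 24220.5 and 26680 UMIs against 9528 and 8360 in the cluster. None of its cells held at least 5 mitotic UMIs in either library. Committed and newly formed oligodendrocytes, the next stage after the precursor, had 3 of 49 and 4 of 34 cells past it at a class median of 13016 and 19671 UMIs. None of these 7 cells held more than 7 UMIs of the 34 genes, and the genes made up at most 5.55 per 10000 UMIs in any of them.

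**Figure D1:**
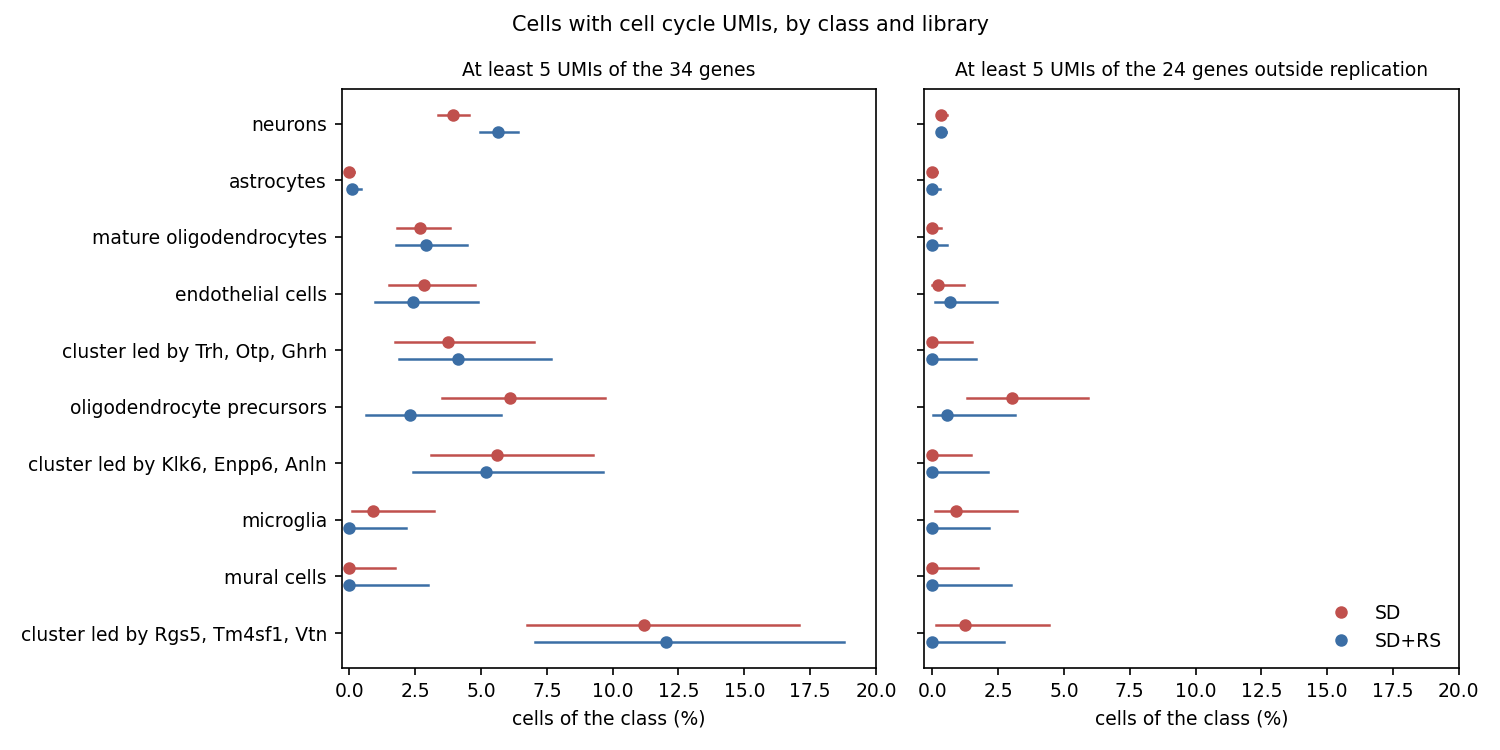
Share of cells (%, horizontal axis) with at least 5 UMIs of the 34 genes (left) or of the 24 mitotic genes (right) in each class of at least 100 cells per library; points are SD (red) and SD+RS (blue) and lines are 95% Clopper-Pearson intervals. On the left the cluster led by Rgs5, Tm4sf1 and Vtn stands highest, at 11.2% in SD and with 16 of 133 cells in SD+RS, above precursors at 6.08% and 2.29%, and mural cells stand at 0; on the right the SD precursors stand at 3.04%, that cluster at 1.24% in SD, and SD+RS endothelial cells (0.685%) beside SD+RS precursors (0.571%).

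Counting only the 24 mitotic genes changed which classes stood out. At least 5 of those UMIs were found in 8 SD precursors (3.04%, 1.32 to 5.91%) and 1 SD+RS precursor (0.571%, 0.0145 to 3.14%). They were found in 2 SD microglia, in no astrocyte and in no mature oligodendrocyte of either library. Endothelial cells had 1 cell (0.217%) in SD and 2 cells (0.685%) in SD+RS, and the cluster led by Rgs5, Tm4sf1 and Vtn had 2 of 161 (1.24%) and 0 of 133. Neurons had 14 cells (0.335%) in SD and 13 cells (0.314%) in SD+RS, at median depths of 30670 and 35779 UMIs. When every cell was thinned to 2000 UMIs, with 10 and 4 shallower precursors left out, at least 2 mitotic UMIs were found in 10 of 253 precursors (3.95%) and 1 of 171 precursors (0.585%). The thinned share was 0.201% and 0.122% in neurons, 0.948% (2 of 211) and 0 of 164 in microglia, and 1 of 1925 and 0 of 1173 in astrocytes. In endothelial cells it was 1.73% (7 of 404) and 2.06% (5 of 243). In SD+RS the endothelial share was thus above that of precursors, on 5 cells and 1 cell. Macrophages had 2 of 15 and 1 of 11 cells. Of the endothelial mitotic UMIs, 181 in SD and 118 in SD+RS, most came from 1 gene, Kif23, and 0 from Mki67. Whether endothelial cells passed either limit through Kif23 alone was not tested. Requiring that the 34 genes also make up at least 10 per 10000 UMIs of the cell, a limit set with the values in view, left 18 cells in SD and 6 in SD+RS. Precursors were 14 of those 18 and 4 of those 6.

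The 16 precursors of SD held 229, 211, 208, 126, 86, 53, 34, 21, 16, 15, 11, 10, 7, 6, 6 and 5 UMIs of the 34 genes. The 4 precursors of SD+RS held 80, 19, 6 and 6. The values therefore spread over a wide range within each library, and the highest SD+RS cell lay below the 5 highest SD cells.

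Cells past the threshold were of 2 kinds. In 7 SD cells and 1 SD+RS cell most of the UMIs came from mitotic genes. The 7 SD cells held between 32 and 227 mitotic UMIs each, from 11 to 24 of the 24 genes, and at most 21 UMIs of replication genes. The single SD+RS cell of this kind held 67 mitotic UMIs from 22 of the 24 genes and 13 UMIs of replication genes. In the other 9 SD cells and 3 SD+RS cells most of the UMIs came from replication genes, with 5 to 16 such UMIs per SD cell and 6 to 17 per SD+RS cell, and never more than 5 mitotic UMIs. These cells were also the ones nearest the threshold, at 5 to 21 UMIs in all.

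**Figure D2:**
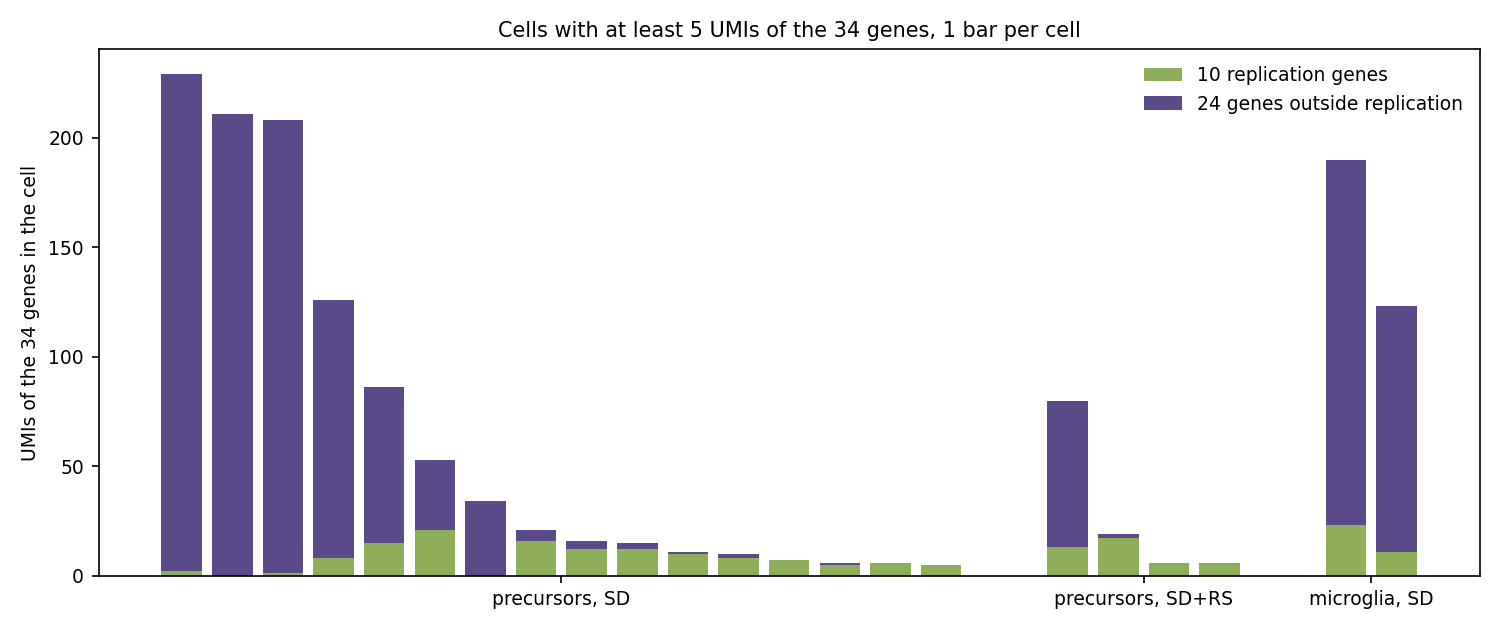
UMIs of the 34 genes (vertical axis) in each cell past the threshold of 5, 1 bar per cell, in order within precursors of SD, precursors of SD+RS and microglia of SD; green is the 10 replication genes and purple the 24 mitotic genes. The 7 tallest SD precursors, the tallest SD+RS precursor and both microglia are mostly purple, and the short bars are mostly green.

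The SD cells of the mitotic kind were deep, with a median of 9385 UMIs (4828 to 11401), and the replication kind had a median of 5958 UMIs (3737 to 6896). All 20 cells held Pdgfra transcripts and Olig1 transcripts. The highest doublet score among them was 0.0370, below the limits of 0.191 (SD) and 0.252 (SD+RS). In SD, 9 of the 16 cells had Xist UMIs only, 5 had Y-linked UMIs only and 2 had neither, and in SD+RS the 4 cells split into 2 and 2. Cells of both calls were thus among them in each library.

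In SD a few cells carried most of the class total, and in SD+RS 55.6% of it lay in precursors under the threshold. In SD the 8 precursors with at least 20 UMIs held 968 of the 1212 UMIs of the 34 genes (79.9%) and 97.1% of the mitotic ones. In SD+RS the 1 precursor of that size held 80 of 250 UMIs (32.0%) and 77.0% of the mitotic ones. Precursors under 5 UMIs, 247 cells in SD and 171 in SD+RS, had 156 CPM of the 34 genes in SD and 196 CPM in SD+RS, where CPM is the usual count of UMIs scaled to a common class total. Their log2 ratio, SD+RS over SD, was 0.33 (-0.01 to 0.66), in the opposite direction to that of the whole class.

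Over all precursors the 34 genes stood at 1022 CPM in SD and 343 CPM in SD+RS, and the log2 ratio was -1.58 (-1.78 to -1.38). UMIs from the same cell are not independent, so the interval, which treats each UMI as a separate count, is too narrow as a statement about cells. The difference lay in the mitotic genes: they gave 932 UMIs (786 CPM) in SD and 87 UMIs (119 CPM) in SD+RS, a log2 ratio of -2.72 (-3.05 to -2.40). Replication genes gave 280 UMIs (236 CPM) and 163 UMIs (223 CPM), a log2 ratio of -0.08 (-0.37 to 0.20). Cells with Xist UMIs only had 1466 CPM and 374 CPM, and cells with Y-linked UMIs only had 954 CPM and 339 CPM, with log2 ratios of -1.97 (-2.21 to -1.74) and -1.49 (-1.94 to -1.07).

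Whether the difference between libraries lay in cell number or in UMIs per cell was split into 3 factors whose log2 ratios add up. UMIs held by precursors past the threshold were 1044 in SD and 111 in SD+RS, a log2 ratio of -3.23. Of this, -0.59 (-0.87 to -0.31) came from the smaller number of precursors in SD+RS, a library with fewer cells in all (7415 against 9297), in which precursors were 2.36% of cells against 2.83% in SD. A further -1.41 (-3.45 to 0.22) came from the smaller share of precursors past the threshold, and -1.23 (-1.53 to -0.95) from fewer UMIs in each such cell. The mean was 65.25 UMIs per such cell in SD and 27.75 in SD+RS, and the medians were 18.5 and 12.5. The interval of the share included no difference, since it rests on 16 and 4 cells. The UMIs per cell rest on the same 16 and 4 cells, but their interval treats each UMI as a separate count. It is therefore too narrow as a statement about cells, and its width cannot be set against that of the share.

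The split depended on the threshold. At 3 UMIs, 33 and 19 precursors qualified, and the share gave -0.21 and the UMIs per cell -1.97. At 10 UMIs, 12 and 2 precursors qualified, and the share gave -1.997 and the UMIs per cell -0.78. At 20 UMIs, 8 and 1 precursors qualified, and the share gave -2.41 (-7.88 to 0.49) and the UMIs per cell -0.60. The low threshold thus placed most of the difference in UMIs per cell, and the high threshold placed most of it in the number of cells. With at least 5 per 10000 UMIs and at least 2 UMIs as the rule, 35 and 25 precursors qualified, and the log2 ratio of the share was 0.10 (-0.70 to 0.88).

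**Figure D3:**
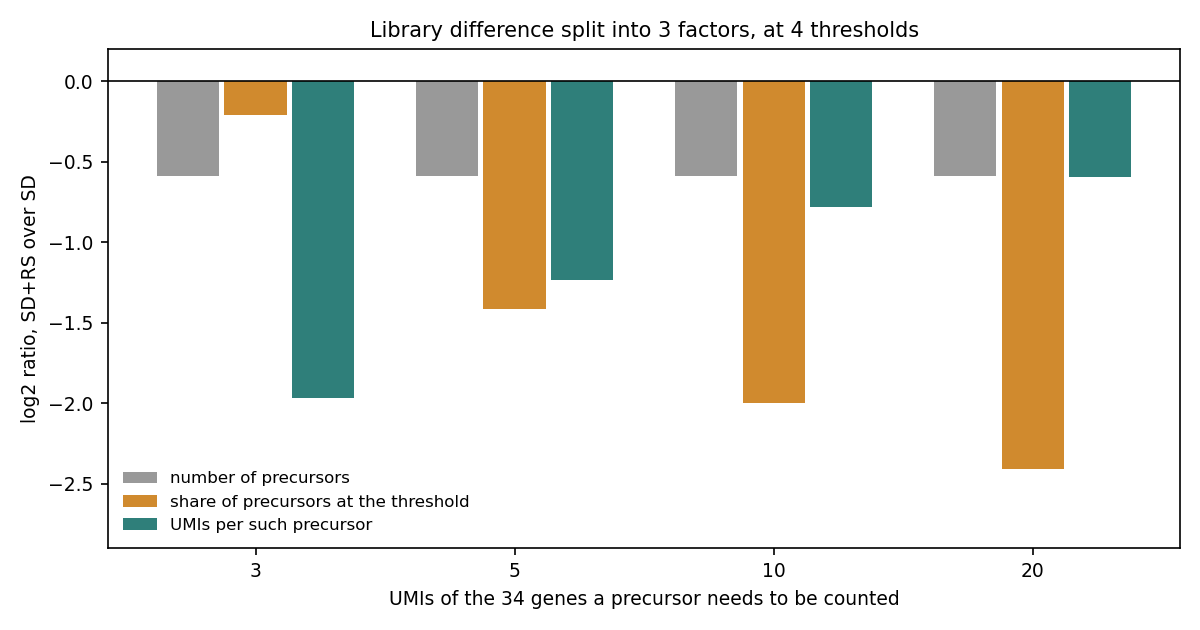
Log2 ratio, SD+RS over SD (vertical axis), of the number of precursors (grey), the share of precursors that reach the threshold (orange) and the UMIs of the 34 genes in each such precursor (green), at thresholds of 3, 5, 10 and 20 UMIs (horizontal axis). From 3 to 20 UMIs the share goes from -0.21 to -2.41 and the UMIs per cell from -1.97 to -0.60.

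Gene by gene, 26 of the 34 genes had at least 20 UMIs over both libraries in precursors and were compared. A gene was called lower or higher where its level differed by more than 1.5-fold and the counting interval of the ratio excluded no difference. By this rule 18 of 26 genes were lower in SD+RS and 0 were higher, against 3.49% lower and 2.46% higher among all 9879 genes compared in precursors. The mitotic genes reached 20 UMIs mainly through SD, so the filter favoured genes high in that library: all 17 compared were lower in SD+RS, which is a description and no support, and the other 7 mitotic genes were not compared. Of 9 replication genes 1 was lower, with a median log2 ratio of -0.11, and the median over all genes was 0.01. Without the precursor with most UMIs in each library 16 of 24 genes were lower, against 3.51% of all genes compared. Without the 3 SD precursors with most UMIs, 5 of 17 genes compared were lower, against 3.03% of all genes. Of the mitotic genes 4 of 8 were lower in that setting, and the log2 ratio of the class sum was -0.51.

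Of the replication genes, Pcna, the sliding clamp of DNA polymerase, had 56 UMIs in 45 cells of SD and 41 UMIs in 33 cells of SD+RS. Its log2 ratio was 0.25 (-0.37 to 0.86). The helicase subunit Mcm3 was the exception, with 21 UMIs in 12 cells against 3 UMIs in 3 cells and a log2 ratio of -2.11 (-4.49 to -0.36). The other helicase subunits Mcm2, Mcm4, Mcm5, Mcm6 and Mcm7 had 15 to 30 UMIs in SD and 12 to 24 in SD+RS, with log2 ratios between -0.35 and 0.38. Tyms, which makes thymidylate, had 33 and 16 UMIs, and the ribonucleotide reductase subunit Rrm1 had 33 and 24. The other subunit, Rrm2, had 14 and 3 UMIs and fell short of the 20 needed. Replication transcripts were thus spread over many precursors in both libraries.

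Cyclins and their kinase were the group with the largest difference, 130 CPM in SD and 12.3 CPM in SD+RS, a log2 ratio of -3.40 (-4.55 to -2.43). Cdk1, the kinase that drives entry into mitosis, had 70 UMIs in 8 cells of SD and 4 UMIs in 1 cell of SD+RS. Its cyclin partner Ccnb1 had 47 UMIs in 4 cells against 3 in 1 cell, and Ccnb2 had 21 UMIs in 6 cells against 1 in 1 cell. Ccna2 had 16 UMIs and 1 UMI, too few to be compared. In SD+RS all UMIs of these 4 genes came from the same precursor, the one with 80 UMIs.

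Mitotic kinases, the spindle checkpoint and the ubiquitin ligase stood at 255 CPM and 32.9 CPM, with a log2 ratio of -2.95 (-3.62 to -2.35). Ube2c, the ubiquitin-conjugating enzyme of the anaphase-promoting complex, had the most UMIs of any of the 34 genes in precursors, 105 in 7 cells of SD and 7 in 2 cells of SD+RS, a log2 ratio of -3.21 (-4.56 to -2.11). Cdc20, the activator of that complex, had 59 and 4 UMIs. Cdca8 and Birc5, both subunits of the chromosomal passenger complex, had 57 and 4 UMIs and 29 and 3 UMIs. The kinases Plk1, Aurka and Aurkb had 15, 8 and 13 UMIs in SD and 0, 2 and 3 in SD+RS, and the checkpoint genes Bub1 and Bub1b had 9 and 7 against 0 and 1. These 5 were too few to be compared one by one.

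Centromere and spindle genes stood at 300.1 CPM and 57.6 CPM, with a log2 ratio of -2.38 (-2.88 to -1.92). Cenpa, the histone variant that marks the centromere, had 69 and 5 UMIs, and Cenpf and Cenpe, which act at the kinetochore, had 65 and 6 UMIs and 23 and 5 UMIs. Prc1, which bundles microtubules of the central spindle, had 49 and 4 UMIs, Hmmr had 42 and 3, Nusap1 had 31 and 4, and the spindle motor Kif11 had 24 and 1. Among the 8 genes compared in this group the smallest difference was that of Tpx2, an activator of Aurka on the spindle, with 43 and 10 UMIs and a log2 ratio of -1.40 (-2.56 to -0.39). Tpx2 also occurred in more cells than the others of this group, 11 of SD and 8 of SD+RS. Kif23, a motor of the central spindle, had 10 and 4 UMIs and was not compared. Mki67, the proliferation marker, had 47 UMIs in 8 cells and 3 UMIs in 1 cell. Top2a, which untangles sister chromosomes, had 73 UMIs in 8 cells and 9 UMIs in 2 cells.

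**Figure D4:**
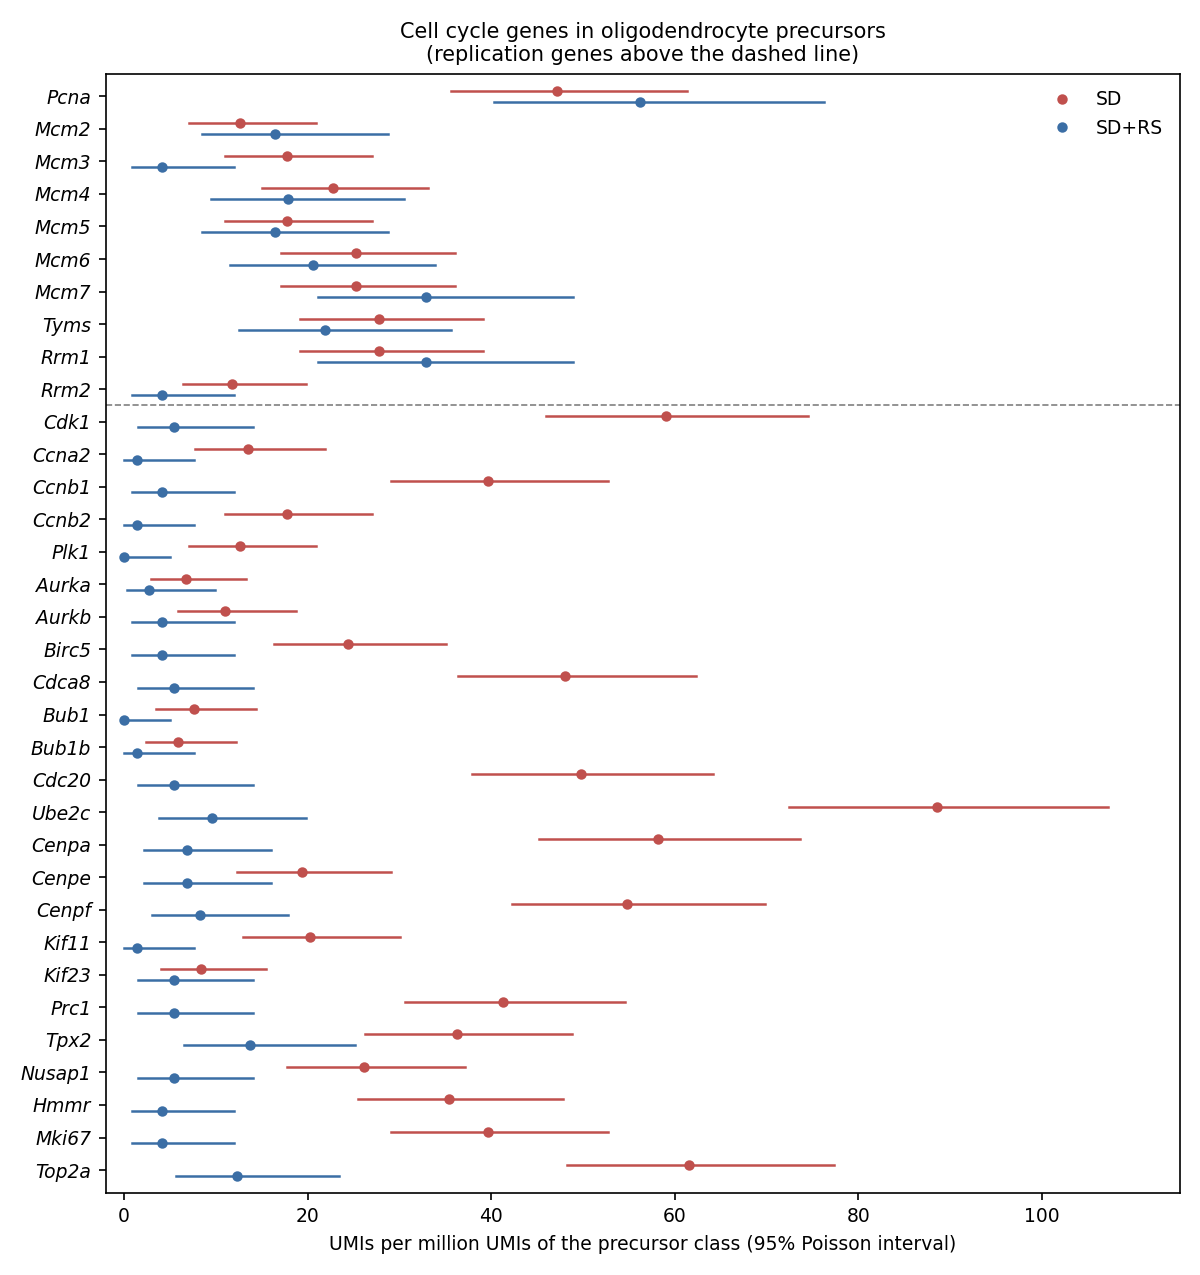
Level of each of the 34 genes in oligodendrocyte precursors, as CPM (horizontal axis), in SD (red) and SD+RS (blue) with 95% Poisson intervals that cover counting error only. Points of the replication genes above the dashed line lie near each other except for Mcm3 and Rrm2, and mitotic genes such as Ube2c, Top2a and Cdk1 lie between 59.0 and 88.5 CPM in SD and at 12.3 CPM or less in SD+RS.

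The 7 SD precursors of the mitotic kind did not hold the genes in equal parts. Ube2c had between 1 and 40 UMIs in them with a median of 15, Ccnb1 between 0 and 19 with a median of 3, Mki67 between 1 and 11 with a median of 7, and Top2a between 0 and 19 with a median of 8. Only 6 genes, Cdca8, Ube2c, Kif11, Prc1, Hmmr and Mki67, had a UMI in all 7. The 3 cells with most UMIs held 40, 16 and 29 UMIs of Ube2c and 10, 15 and 19 of Ccnb1, with 2, 0 and 1 UMIs of all replication genes. The cells with 86 and 53 UMIs held 1 UMI of Ube2c and no Ccnb1 each, together with 15 and 21 replication UMIs and 10 and 8 UMIs of Mki67. The 3 cells with most Ccnb1 were thus nearly free of replication UMIs, and the 2 cells with most replication UMIs lacked Ccnb1.

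The promoter windows of RefSeq (250 bases before to 50 after the start site, build GRCm38.p6) were then searched on both strands. Windows were listed for 30 of the 34 genes, 21 mitotic and 9 of replication. The CHR motif, read by the MuvB complexes, was searched as TTTGAA and in a further form that was spelled TTTAAA. The motif of NF-Y was searched as CCAAT. The E2F motif was searched in the 3 forms TTTCCCGC, TTTGGCGC and TTTCGCGC. CHR letters were found in 19 of 21 mitotic windows (90.5%), in 3 of 9 replication windows (33.3%) and in 27.8% of all 27025 windows. CCAAT was found in 19 of 21, in 8 of 9 and in 37.9% of all. E2F letters were found in 1 of 21 (Cdk1), in 4 of 9 (Mcm3, Mcm5, Mcm6 and Mcm7) and in 1.90% of all. A match is a run of letters and was not tested as a binding site. The shares describe the mitotic and the replication list, and a link to the difference between libraries was not tested.

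Shown are the 250 bases before the start site, 5′ to 3′ on the gene's strand, of the 2 mitotic genes with most UMIs in precursors past the threshold and of the 2 replication genes with most E2F matches within those 250 bases, a choice made with the matches known. Capitals mark every match to a motif. The windows are chr2:164769679-164769928 (plus strand) for Ube2c, chr11:99024190-99024439 (minus) for Top2a, chr1:128359706-128359955 (minus) for Mcm6 and chr8:75109259-75109508 (plus) for Mcm5.
Ube2c: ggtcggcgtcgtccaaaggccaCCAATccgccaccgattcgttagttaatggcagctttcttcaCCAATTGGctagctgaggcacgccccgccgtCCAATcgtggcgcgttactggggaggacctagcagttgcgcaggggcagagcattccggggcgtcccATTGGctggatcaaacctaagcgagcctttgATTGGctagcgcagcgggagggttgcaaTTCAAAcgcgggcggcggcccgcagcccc
Top2a: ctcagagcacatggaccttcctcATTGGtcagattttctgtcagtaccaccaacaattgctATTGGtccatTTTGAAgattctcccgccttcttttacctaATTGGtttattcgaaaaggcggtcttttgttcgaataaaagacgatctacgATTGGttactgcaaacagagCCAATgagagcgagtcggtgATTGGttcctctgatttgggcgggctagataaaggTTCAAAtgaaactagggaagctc
Mcm6: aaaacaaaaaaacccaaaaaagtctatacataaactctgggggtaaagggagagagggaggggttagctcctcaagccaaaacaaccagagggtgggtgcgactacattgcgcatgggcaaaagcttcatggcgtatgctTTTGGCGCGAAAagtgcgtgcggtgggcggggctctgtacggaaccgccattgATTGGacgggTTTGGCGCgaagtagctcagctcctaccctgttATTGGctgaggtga
Mcm5: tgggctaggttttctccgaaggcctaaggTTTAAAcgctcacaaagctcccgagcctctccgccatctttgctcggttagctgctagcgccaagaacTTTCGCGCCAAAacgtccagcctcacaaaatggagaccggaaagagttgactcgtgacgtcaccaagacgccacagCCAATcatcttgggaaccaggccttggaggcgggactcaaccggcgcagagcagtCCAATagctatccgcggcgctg
In Ube2c the CHR letters, TTCAAA read on the given strand, began 29 bases before the start site, with 6 CCAAT matches upstream of it. Top2a had 2 CHR matches, the nearer of which began 23 bases before the start site, and 6 CCAAT matches. Neither window held E2F letters. Mcm6 had 3 E2F matches and no CHR match, and Mcm5 had 2 E2F matches that overlap each other and a CHR match that began 221 bases before the start site. No match of 1 motif overlapped a match of another in these windows, and 1 pair of matches to the same motif overlapped in each of Ube2c, Mcm6 and Mcm5.

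Genes outside the 34 were then compared between the 20 precursors past the threshold and the other 418, over both libraries. Of 9879 genes compared, 5.63% were higher and 3.10% lower in the 20 cells by the same rule. Of 40 further replication genes 16 could be compared and 13 were higher, with a median log2 ratio of 2.13. Of 54 further mitosis genes (53 found in the tables) 31 could be compared and 30 were higher, with a median of 4.95. The median was -0.01 for all genes. The 20 cells were chosen by cell cycle UMIs, and the filter of 20 UMIs favoured genes high in them. Of the 31 mitosis genes, 4 had 0 UMIs in the other 418 cells and were compared through the 20 cells alone. These counts, and those within each library, are a description and no support. Within SD 13 of 15 replication and 29 of 30 mitosis genes were higher (background 5.41% higher and 3.31% lower). Within SD+RS, with 4 cells past the threshold, 2 of 7 and 7 of 13 were (2.07% and 0.481%). Among these genes Hmgb2, a chromatin protein of dividing cells, had 171 UMIs in 15 of the 20 cells and 62 UMIs in 57 of the 418, a log2 ratio of 5.26 (4.83 to 5.70). The histone variant gene H2afz had 327 UMIs in all 20 cells and was also present in 80.9% of the others, a log2 ratio of 2.54 (2.35 to 2.73). Stmn1, a regulator of microtubules, stood at 1218 CPM and 195 CPM, and the tubulin genes Tubb4b and Tuba1b at 714 and 158 CPM and at 675 and 171 CPM. Of the replication list the histone chaperone Nasp had 44 UMIs in 18 of the 20 cells (log2 ratio 2.04, 1.52 to 2.54), Atad2 had 25 UMIs (4.74, 3.72 to 5.83), the maintenance methyltransferase Dnmt1 had 21 UMIs (2.04, 1.26 to 2.76), Tipin had 18 UMIs (1.49, 0.67 to 2.23) and thymidine kinase Tk1 had 18 UMIs in the 20 cells and 1 in the others.

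Of 32 regulators of the cycle 20 could be compared, 6 were higher and 1 lower, with a median of 0.43. The inhibitor of cyclin D kinases Cdkn2c stood out, with 54 UMIs in 8 of the 20 cells and 8 UMIs in 8 of the 418, a log2 ratio of 6.55 (5.47 to 7.83). Its paralog Cdkn2d had 26 and 101 UMIs, with a log2 ratio of 1.84 (1.15 to 2.47). Cyclin D genes, which act before replication, differed little: Ccnd1 had a log2 ratio of 0.34 (0.00 to 0.66), with UMIs in 19 of the 20 cells and 78.2% of the others, and Ccnd3 had 0.33 (-0.50 to 1.07). Their kinase Cdk4 had 0.35 (-0.20 to 0.86).

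The 10 genes outside every list with the highest ratios, each with at least 50 UMIs in the 20 cells, were Selenoh, Jpt1, Hmgn2, Tubb5, Nucks1, Arl6ip1, Hdgf, Ube2s, Hmgb1 and H2afv. Their log2 ratios ran from 2.66 (2.27 to 3.04) for Selenoh to 1.27 (0.96 to 1.56) for H2afv. Tubb5, a beta-tubulin, stood at 1288 CPM against 328 CPM, Ube2s, the chain-elongating partner of Ube2c, at 621 against 191 CPM, and the chromatin proteins Hmgn2 and Hmgb1 at 481 against 108 CPM and 1451 against 539 CPM. Without the cell with most of each gene, Arl6ip1 still had 260 of its 346 UMIs and Tubb5 126 of its 166.

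Markers of the precursor were compared between the 20 cells and the other precursors. Pdgfra, the receptor for the growth factor that drives precursor division, stood at 1637 CPM against 1378 CPM (log2 ratio 0.25, 0.04 to 0.45). It was the only one of the 8 precursor markers with a positive ratio, and their median was -0.31. By the rule 1 was lower, C1ql1, at 970 CPM against 1933 CPM (-0.99, -1.26 to -0.74). Short of 1.5-fold, Olig1 (-0.42), Matn4 (-0.48), Cspg4 (-0.37) and Ptprz1 (-0.19) also had intervals below 0. The intervals of Olig2 (-0.11) and Lhfpl3 (-0.26) included no difference. Of 8 markers of committed and newly formed oligodendrocytes 6 could be compared and 3 were lower: Gpr17 at -0.81 (-1.24 to -0.41), Bcas1 at -1.20 (-2.08 to -0.43) and Itpr2 at -0.92 (-1.94 to -0.06). Over all genes compared 3.10% were lower and 5.63% higher. The 20 cells were mostly of SD, so this contrast also holds part of the library difference. Within SD 2 of these 6 were lower, against 3.31% of all genes, and within SD+RS 0 of 6, against 0.481%. Of the 8 precursor markers 1 was lower within SD and 0 within SD+RS. The microglia markers Cx3cr1, Tmem119, C1qb, Csf1r and Siglech were at 0 in the 20 cells. Sox11, a transcription factor of young neural cells, was higher at 1.03 (0.45 to 1.57), and Dcx, a microtubule protein of young neurons that precursors also carry, was lower, with 2 UMIs against 140 (-2.34, -5.40 to -0.46).

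Between libraries, the lists fixed beside the 34 genes were then read in the whole precursor class. Of the further mitosis genes 21 of 31 compared were lower in SD+RS and 0 higher, with a median of -1.24, against the 3.49% lower and 2.46% higher among all genes compared in the class. Of the further replication genes 3 of 16 were lower, with a median of -0.23, and of the regulators 2 of 20 were lower and 1 higher, with a median of 0.08. These lists come from the same cells and passed the same filter as the 34 genes, and they add no further cells.

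Microglia gave the only other glia with many mitotic UMIs. In SD 2 cells held 190 and 123 UMIs of the 34 genes, of which 167 and 112 were mitotic, from 24 and 21 of the 24 genes. They were deep, at 15528 and 12552 UMIs against a class median of 5255.5. Both held microglial transcripts, with 119 and 128 UMIs of C1qa, 121 and 127 of C1qb, 38 and 16 of Cx3cr1 and 3 and 10 of P2ry12, and neither held Pdgfra, Olig1 or Olig2. Their doublet scores were 0.0215 and 0.0117. Both had Xist UMIs only.

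These 2 cells held 68.5% of the UMIs of the 34 genes in SD microglia and 94.6% of the mitotic ones. The class stood at 405 CPM in SD and 123 CPM in SD+RS, a log2 ratio of -1.72 (-2.04 to -1.41), and without the 2 cells at 131 and 123 CPM, a ratio of -0.09 (-0.46 to 0.28). Of 8 genes that could be compared in microglia, Cdk1, Birc5, Ube2c and Cenpa were lower in SD+RS; all 4 reached the 20 UMIs needed through the 2 SD cells, so this is a description, beside 5.08% lower and 2.87% higher among all 7760 genes compared in the class. Ube2c had 24 UMIs in SD, all in the 2 cells, and 0 in SD+RS, at least 6.17-fold lower with 0 set to 3 counts over the class. Rrm2, the subunit of ribonucleotide reductase made in synthesis phase, had 10 and 4 UMIs in these 2 cells and 0 in all other microglia. Mcm3, with 38 UMIs in 35 SD microglia and 24 UMIs in 21 SD+RS microglia, was the only one of the 34 genes whose highest level over classes was in microglia (31.0 CPM).

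Across the 10 classes with at least 100 cells in each library, 29 of the 34 genes had their highest level in oligodendrocyte precursors, and 23 of the 24 mitotic genes did. Levels here are CPM of the same gene across classes, over both libraries. How many of all genes were highest in precursors was not counted, so no background stands beside these counts. The mitotic levels in precursors rest on few cells: in SD, 8 cells held 905 of the 932 mitotic UMIs of the class. Top2a stood at 42.8 CPM in precursors, 9.50 CPM in microglia and 1.17 CPM or less in the other 8 classes. In precursors under 5 UMIs the mitotic genes were nearly absent: 8 of the 34 genes had 0 UMIs among those 418 cells, and the mitotic gene with most, Tpx2, had 7. Ccnb1 was at least 231-fold and Hmmr at least 208-fold higher in the 20 cells, with 0 set to 3 counts over the other cells; these ratios describe the choice of the cells, since the same UMIs selected them.

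**Figure D5:**
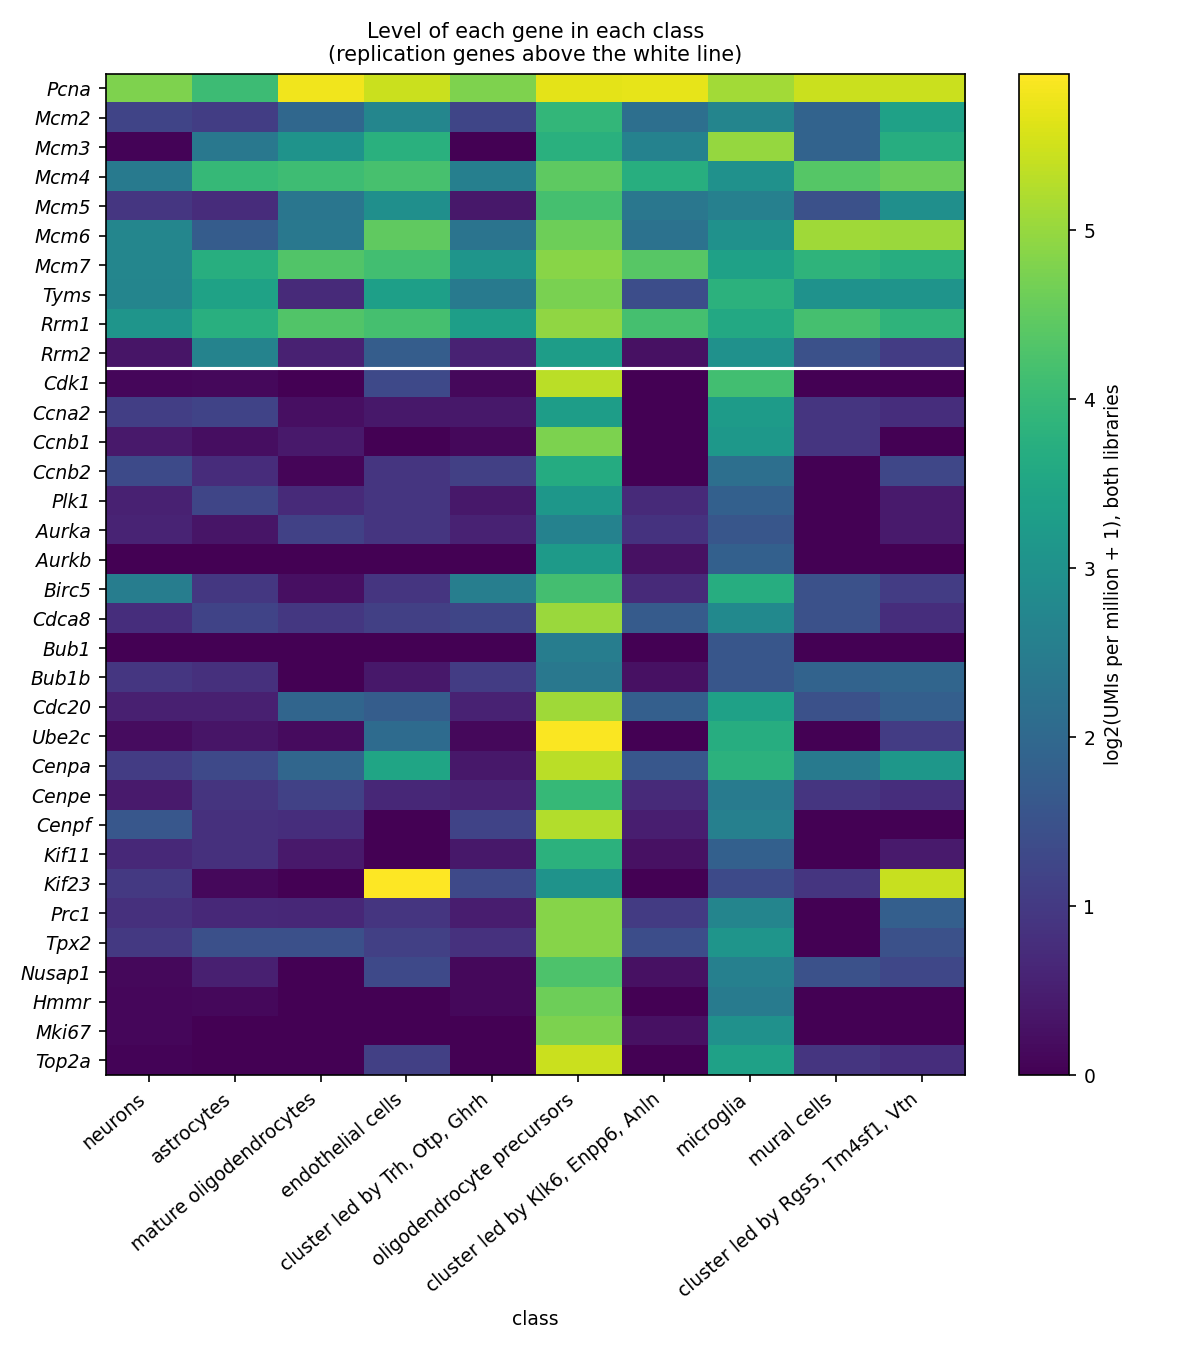
Level of each of the 34 genes (rows) in each class with at least 100 cells per library (columns), colour as log2 of CPM plus 1 over both libraries; replication genes are above the white line. Below the line the column of oligodendrocyte precursors is brightest for 23 of 24 genes, and Kif23 is brightest in endothelial cells.

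The exception among mitotic genes was Kif23, at 59.9 CPM in endothelial cells, 42.1 CPM in the cluster led by Rgs5, Tm4sf1 and Vtn, whose cells held endothelial markers while its leading genes were mural, and which was left unnamed, and 7.31 CPM in precursors. In endothelial cells it had 133 UMIs in 103 of 461 cells of SD and 71 UMIs in 47 of 292 cells of SD+RS, a log2 ratio of -0.18 (-0.61 to 0.25). These UMIs were most of the 181 and 118 mitotic UMIs of endothelial cells. Kif23 was thus spread over 22.3% and 16.1% of endothelial cells, whereas Top2a had 2 UMIs in each library there and Mki67 had 0. Of the replication genes, Mcm6 was highest in mural cells (33.1 CPM), Mcm4 in the unnamed vascular cluster (22.6 CPM, beside 20.9 CPM in precursors) and Pcna in mature oligodendrocytes (55.1 CPM, beside 50.6 CPM in precursors).

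Neurons held the genes at a low level in many cells. Pcna had 2114 UMIs in 1543 neurons of SD and 2671 UMIs in 1876 neurons of SD+RS, 24.3 and 28.7 CPM. Birc5 was the mitotic gene with most UMIs in neurons, 438 and 406, or 5.03 and 4.35 CPM. Mcm3, by contrast with the other helicase subunits, had 3 and 5 UMIs in neurons. Of 26 genes that could be compared, 0 were higher and 0 lower in neurons, against 1.61% higher and 3.35% lower of 16454 genes. The sum stood at 72.2 and 78.9 CPM, with a log2 ratio of 0.13 (0.08 to 0.18).

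In astrocytes 0 of 9 genes compared were lower or higher, against 6.80% lower and 3.69% higher of 12318 genes. In mature oligodendrocytes 1 of 11 was lower, against 7.05% lower and 3.92% higher of 11085 genes: it was Mcm7, with 213 and 84 UMIs and a log2 ratio of -0.66 (-1.05 to -0.29). In endothelial cells 0 of 10 were lower or higher, against 3.98% lower and 4.66% higher of 9817 genes. Of the 34 genes, 14 overlap another annotated gene and 6 overlap one on the same strand, among them Mcm7 with the microRNA genes Mir25, Mir93 and Mir106b. Ube2c overlaps Tnnc2 on the other strand, and how reads in overlaps were assigned is not stated in the labels.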

How the data were processed

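Droplet counts of 2 libraries (SD and SD+RS) were analysed. The values are UMI counts per gene and cell as deposited by the authors, made with Cell Ranger 3.0.2 per the file headers, on mm10 per the submitters' processing notes, which also name Seurat 4.0.4. The strand setting is not stated. The authors' marker tables were not used.

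Barcodes needed 500 genes or more, and a mitochondrial share below 20%, and doublets were called per library with Scrublet in scanpy 1.11.5 (6% expected, 2 simulated per cell; 5.85% and 3.81% marked, 63.2% and 59.9% of simulated doublets called) and left out. Cells were clustered without the cell cycle genes (2000 variable genes, 40 components, 20 neighbours, Leiden resolution 1.0). Clusters were named from fixed markers, with naming limits set after the data were seen, and 4 of 34 clusters stayed unnamed. Rebuilt names may differ from the study's.

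A cell passed the threshold with at least 5 UMIs of the 34 genes. By that count neurons had the most such cells, so the rule for named genes, written for the class with most of them, was applied to oligodendrocyte precursors, a choice made with the values in view. That rule names all 34 genes, the 5 genes of each other cell cycle list with most UMIs in these cells, and the 10 genes outside every list with the highest ratio (at least 50 UMIs, in at least 25% of the cells). Genes with at least 20 UMIs over both libraries in a class were compared and called past 1.5-fold where the 95% interval excluded no difference. Intervals are Clopper-Pearson for shares, Poisson for levels and conditional binomial for ratios, in scipy 1.17.1. A count of 0 allows 3 counts. The scripts were tested on simulated data. Alternatives covered cell filters, doublets, clustering, thresholds, thinning to 2000 UMIs and sex calls. With 1 library per group no test across replicates was made. The members and the lists were chosen with earlier results of these data known. Promoter windows came from RefSeq (GRCm38.p6), and the 50 bases after each start site are not printed.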

Additional observations from a re-analysis of the deposited data

Results flagged for a closer look

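Transcripts of the 24 mitotic genes also occurred in barcodes that entered no comparison, above the limit of 3 counts that a count of 0 allows. No control samples stand beside them. That limit takes no account of depth. The 578 barcodes marked as doublets in SD held 243 such UMIs, and the 294 in SD+RS held 143. Their median depths were 19763 and 23784 UMIs, and the genes stood at 21.4 and 20.3 CPM in them. The same genes stood at 18.5 and 17.5 CPM in neurons and at 786 and 119 CPM in precursors. Barcodes that failed the cell filter held 22 UMIs in SD (387 barcodes, 23.3 CPM) and 29 UMIs in SD+RS (397 barcodes, 37.6 CPM). At least 5 mitotic UMIs were found in 2 of the SD+RS doublets, with at most 7 in 1 barcode, and in 1 of the SD+RS barcodes that failed the filter, which held 6. In SD no such barcode reached 5.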

How the results depend on the processing

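No paired analysis was possible because each group held 1 library, and no replicate could be left out. Keeping doublet calls, a stricter cell filter, Leiden resolution 2.0 and clustering with the cell cycle genes left every value of the split within its limits. In each of them 18 of 26 genes compared were lower, against 3.43 to 3.66% of all genes. Results reversed in 3 cases: the share of precursors was 0.10 with at least 5 per 10000 and 2 UMIs, the number of precursors was 0.10 in cells with Xist UMIs only, and the summed level was 0.33 without precursors past the threshold. In order of cells in SD, cells in SD+RS and log2 ratio of UMIs per cell, the values were 33, 19 and -1.97 at 3 UMIs, 35, 25 and -2.19 at 5 per 10000 and 2 UMIs, 9, 2 and -0.86 with Xist UMIs only, and 5, 2 and -2.37 with Y-linked UMIs only. At 10 UMIs 2 cells of SD+RS and -0.78 remained. With 5 mitotic UMIs, and with 20 UMIs, the values were 8, 1 and -0.60. Thinned cells numbered 26 and 15. The summed level was -1.13 in thinned cells, -0.996 as a mean over cells and -1.97 with Xist UMIs only. The number of precursors was -1.31 with Y-linked UMIs only. Alternatives chosen after seeing the data were the 20 UMI threshold, the rule of 10 per 10000 and 5 UMIs (14 and 4 cells, share -1.22 and UMIs per cell -1.41), the counts of genes called and those that left out cells. Without the top precursor of each library the summed level was -1.83 and the UMIs per cell -2.39. Without the 3 SD precursors with most UMIs the summed level was -0.51 and 5 of 17 genes compared were lower (3.03% of all genes). With Y-linked UMIs only 5 of 6 were (2.24% of all genes). Without all precursors past the threshold 0 of 6 were (2.94% of all genes). No mitotic gene could be compared there, since the same UMIs chose the cells left out. These alternatives use fewer cells by construction, and other causes were not tested. The 4 SD+RS precursors past the threshold limit what the depth can show.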

Other observations

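Outside the glia, some sums by role or over the 24 mitotic genes had intervals that excluded no difference between libraries. Many sums were read and each UMI was treated as a separate count, so a few such intervals can occur by counting alone. In neurons the log2 ratio was 0.19 (0.14 to 0.25) for replication genes and -0.247 (-0.494 to -0.0002) for cyclins and their kinase, both short of 1.5-fold. In endothelial cells the 9 genes of mitotic kinases, checkpoint and ubiquitin ligase had 12 UMIs in 11 cells of SD and 21 UMIs in 15 cells of SD+RS, a log2 ratio of 1.54 (0.45 to 2.69). In the unnamed neuronal cluster led by Trh, Otp and Ghrh the 24 mitotic genes had 99 UMIs in SD and 59 UMIs in SD+RS, a log2 ratio of -0.68 (-1.17 to -0.20). Macrophages, with 18 and 11 cells, held Cenpa in 6 cells of SD and 7 cells of SD+RS, with 10 and 11 UMIs.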
